A study of Mus musculus with 15 samples.

Results

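CD157-CD200+ cells are the intermediate subset of a sort of mouse liver endothelial cells on 2 surface proteins, CD157 (the product of Bst1, a membrane-anchored ectoenzyme) and CD200 (an immunoglobulin-family protein). They are described here by the genes whose RNA differed from both other subsets, CD157+CD200+ and CD157-CD200-, in the same direction. The 3 arrays titled for this subset were taken from 15 in all, and were compared with the 3 arrays of each other subset. The remaining 6 arrays hold EC-SP and EC-MP cells, named only as SP and MP in the labels, from livers of animals 8 weeks old. The subsets came from adult liver, and no strain, sex, genotype or treatment that would set the groups apart is given in the sources used here. Each group is 3 samples that the design text calls independent, without saying whether a sample is 1 animal or a pool, so p-values measure the spread between these samples.

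The liver sinusoid is lined by fenestrated, scavenging endothelial cells between the portal tract and the central vein, while arteries and veins are lined by continuous endothelium. Endothelial cells of and near the central vein are known to secrete Wnt ligands and R-spondins, which sustain beta-catenin signalling in the adjoining hepatocytes. R-spondins act by keeping Wnt receptors at the cell surface.

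RNA was measured on 1-colour Agilent arrays. Levels are log2 signals relative to the 75th percentile of the array, which is therefore 0. Between 57.3% and 69.4% of spots were well above background on an array, no spot was saturated, and replicate arrays of the 3 subsets correlated across probes at r between 0.959 and 0.973. A feature was called at an adjusted p (limma, Benjamini-Hochberg over 23701 features) under 0.05. A peak was called higher in CD157-CD200+ than in each of the other subsets, a dip lower than in each, and a graded feature was called against both with CD157-CD200+ between them.

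The sort was checked first at its own genes. Bst1 had levels of 2.45, 2.48 and 2.77 in CD157+CD200+, -2.65, -2.14 and -2.45 in CD157-CD200+, and -3.62, -3.16 and -2.73 in CD157-CD200-. It was low in both CD157- subsets, which did not overlap, and CD157-CD200+ lay 4.98 ± 0.25 (SE, n = 3 per group) below CD157+CD200+ on the log2 scale (adjusted p = 0.000111, limma). Its difference from CD157-CD200- was 0.76 ± 0.25 (adjusted p = 0.0925, limma; 0.028 with the replicate number as a block). Cd200 had levels of 3.41, 3.29 and 3.40 in CD157-CD200+, against 4.49, 4.46 and 4.32 in CD157+CD200+, and was not well above background on any CD157-CD200- array. CD157-CD200+ was therefore lower in Cd200 than CD157+CD200+ by 1.06 ± 0.16 (adjusted p = 0.0134, limma) and at least 168-fold higher than CD157-CD200- (adjusted p = 1.29e-08, limma). Where all 3 arrays of a group were at background, meaning not well above it by the scanner's test, a fold is given in this way as a lower bound, set on each array against the dimmest signal that passed the background test, or the probe's own signal where that is larger. An adjusted p beside a bound belongs to the fitted difference and not to the bound.

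CD157-CD200+ differed from the average of the other subsets at 990 features, 547 higher (2.31%) and 443 lower (1.87%), 4.18% of those tested (2230 with the replicate number as a block, 1101 higher and 1129 lower). The balance also turned with normexp background correction, to 469 higher and 547 lower, and with signal required on every array, to 368 higher and 380 lower. It differed from CD157+CD200+ at 248 features (1.05%), of which 58 were higher (0.245%) and 190 lower (0.802%), and from CD157-CD200- at 2807 (11.8%), of which 1495 were higher (6.31%) and 1312 lower (5.54%). With the block these counts were 727 and 5282. Peaks were 20 features (0.0844%), dips 24 (0.101%) and graded features 96 (0.405%), 74 of them rising from CD157-CD200- to CD157+CD200+ and 22 falling. With the block they were 76, 97 and 290, and these held 19 of the 20 peaks (all but Gipc2) and all 24 dips. Features whose 3 CD157-CD200+ arrays lay above all 6 others were 469 (1.98%), and those below all 6 were 345 (1.46%).

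The counts moved with single arrays. Peaks fell to 11 without CD157+CD200+ replicate 1 or replicate 2, to 12 without CD157-CD200+ replicate 1 and to 13 without its replicate 2. Dips fell to 13 and 15 without CD157+CD200+ replicates 1 and 2, and to 12 without CD157-CD200+ replicate 1 or replicate 2. Of the 44 peak and dip features, 17 kept their pattern whichever of the 9 arrays was left out, and all 44 kept both directions.

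Between the other subsets, CD157-CD200+ lay nearer to CD157+CD200+. Of 3601 features called between CD157+CD200+ and CD157-CD200- (15.2%), the CD157-CD200+ mean was nearer to CD157+CD200+ at 3022 (83.9%). Its median position was 82.0% of the way from CD157-CD200- to CD157+CD200+, with quartiles at 61.1% and 100.5%. The median absolute difference between group means over all features was 0.17 log2 units for CD157-CD200+ against CD157+CD200+ and 0.25 against CD157-CD200-. The plot of both differences for each feature shows the peaks and dips as small groups away from this axis.

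**Figure D1:**
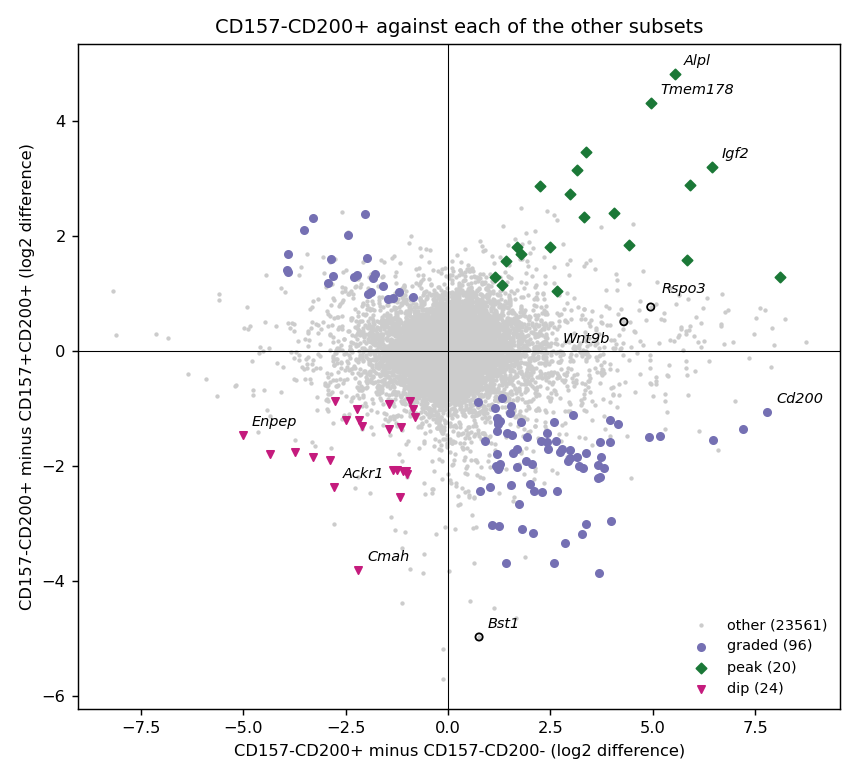
Log2 difference of CD157-CD200+ from CD157-CD200- (horizontal axis) and from CD157+CD200+ (vertical axis) for 23701 features, each point 1 feature and each difference between means of 3 arrays. The 20 peaks lie at the upper right, the 24 dips at the lower left, and the 96 graded features in the other quadrants, with Rspo3, Wnt9b and Bst1 circled because they are neither.

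The promoters of 4 genes are shown because these had the largest fitted differences from the nearer subset among peaks (Alpl and Tmem178) and dips (Ackr1 and Cmah) with a promoter in the table used. Each is the 250 bases before the most upstream start that RefSeq gives, on GRCm38.p6, written 5' to 3' on the gene's own strand. Capitals mark matches to CTTTGA or TCAAAG (the core of sites for the LEF/TCF factors of Wnt signalling) and to CACCC or GGGTG (bound by KLF factors). No match to AGATAA or TTATCT (bound by GATA factors) lies in these 4 windows.
Alpl, chr4:137796385-137796634, minus strand: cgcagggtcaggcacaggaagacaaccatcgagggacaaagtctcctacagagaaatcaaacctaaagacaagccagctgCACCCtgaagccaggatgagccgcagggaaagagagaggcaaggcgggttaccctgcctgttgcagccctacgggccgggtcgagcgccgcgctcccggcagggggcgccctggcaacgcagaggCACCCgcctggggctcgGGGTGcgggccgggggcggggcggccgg
Tmem178, chr17:80944382-80944631, plus strand: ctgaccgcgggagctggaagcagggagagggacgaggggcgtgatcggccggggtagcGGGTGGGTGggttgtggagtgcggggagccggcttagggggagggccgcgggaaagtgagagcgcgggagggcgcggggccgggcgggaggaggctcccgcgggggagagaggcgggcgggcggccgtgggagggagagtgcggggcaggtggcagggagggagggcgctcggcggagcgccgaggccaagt
Ackr1, chr1:173333504-173333753, minus strand: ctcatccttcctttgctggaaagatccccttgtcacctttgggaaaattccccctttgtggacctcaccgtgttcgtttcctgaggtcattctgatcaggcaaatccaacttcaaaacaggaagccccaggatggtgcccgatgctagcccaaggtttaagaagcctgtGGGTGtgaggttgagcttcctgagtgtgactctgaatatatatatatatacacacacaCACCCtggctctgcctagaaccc
Cmah, chr13:24327154-24327403, plus strand: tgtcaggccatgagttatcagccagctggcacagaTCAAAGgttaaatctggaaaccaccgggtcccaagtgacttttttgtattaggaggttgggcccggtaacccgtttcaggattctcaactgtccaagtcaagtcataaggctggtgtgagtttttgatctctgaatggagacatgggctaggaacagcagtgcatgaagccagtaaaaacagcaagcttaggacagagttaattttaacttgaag
Alpl holds 3 KLF-type matches, Tmem178 and Ackr1 hold 2 each, and Cmah holds 1 LEF/TCF-type match.
The table held 20 promoters (300 bases each, reaching 50 bases past the start) of 15 of the 19 named peak genes and 22 promoters of 17 of the 23 named dip genes. Searched on both strands, CACCC was in 17 of the 20 peak promoters (85%) and 12 of the 22 dip promoters (54.5%), against 57.5% of all 32851 promoters of that length. CTTTGA was in 5 peak promoters (25%) and 1 dip promoter (4.55%), against 16% of all. AGATAA was in 1 peak promoter (5%) and 3 dip promoters (13.6%), against 11.2%, and TTCC (the core bound by ETS factors) was in 19 and 20, against 96.0%. Several promoters belong to 1 gene, and these matches are descriptions of sequence.

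Of 4 genes given as markers of CD157-CD200+, Alpl and Igf2 were peaks, while Rspo3 and Wnt9b were not. All 4 were called higher than the average of the other subsets and higher than CD157-CD200-.
Alpl, the tissue-nonspecific alkaline phosphatase, a membrane enzyme found on arterial and arteriolar endothelium in several organs, had levels of 1.52, 1.91 and 1.22 in CD157-CD200+. It had -3.77, -2.81 and -3.23 in CD157+CD200+, and -4.91, -3.03 and -4.04 in CD157-CD200-. The 3 CD157-CD200+ arrays stood apart from the 6 others, which overlapped among themselves and of which 3 were well above background. The log2 difference was 4.82 ± 0.44 from CD157+CD200+ (adjusted p = 0.00133, limma) and 5.54 ± 0.44 from CD157-CD200- (adjusted p = 3.01e-05, limma).
Igf2, an imprinted, secreted growth factor, had levels of 1.18, 1.40 and 1.63 in CD157-CD200+ and -2.33, -1.93 and -1.13 in CD157+CD200+, and was not well above background on any CD157-CD200- array. The subsets did not overlap, with CD157-CD200+ highest. It exceeded CD157+CD200+ by 3.20 ± 0.42 (adjusted p = 0.00795, limma) and CD157-CD200- at least 43.1-fold (adjusted p = 8.64e-06, limma). Alpl and Igf2 kept the pattern with any 1 of the 9 arrays left out. In sorted bulk samples such as these, fewer cells of a type and less RNA per cell cannot be told apart.

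Rspo3, which amplifies Wnt signalling, had levels of 5.59, 5.53 and 5.39 in CD157-CD200+, 4.89, 4.68 and 4.63 in CD157+CD200+, and 1.20, -0.06 and 0.51 in CD157-CD200-. Every CD157-CD200+ array was above every other, but the step from CD157+CD200+ was 0.77 ± 0.28 (adjusted p = 0.433, limma), against 4.95 ± 0.28 from CD157-CD200- (adjusted p = 3.6e-06, limma). Wnt9b, a Wnt ligand of central vein endothelium, had levels of 5.21, 5.34 and 4.95, against 4.73, 4.75 and 4.50 in CD157+CD200+ and 1.38, 0.44 and 0.81 in CD157-CD200-. Again the CD157-CD200+ arrays were the 3 highest, with a step of 0.51 ± 0.25 from CD157+CD200+ (adjusted p = 0.651, limma) and of 4.29 ± 0.25 from CD157-CD200- (adjusted p = 3.6e-06, limma). With the replicate number as a block neither step from CD157+CD200+ was called (adjusted p = 0.151 and 0.287, limma). Both genes were thus shared with CD157+CD200+ at levels that this test did not separate.

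**Figure D2:**
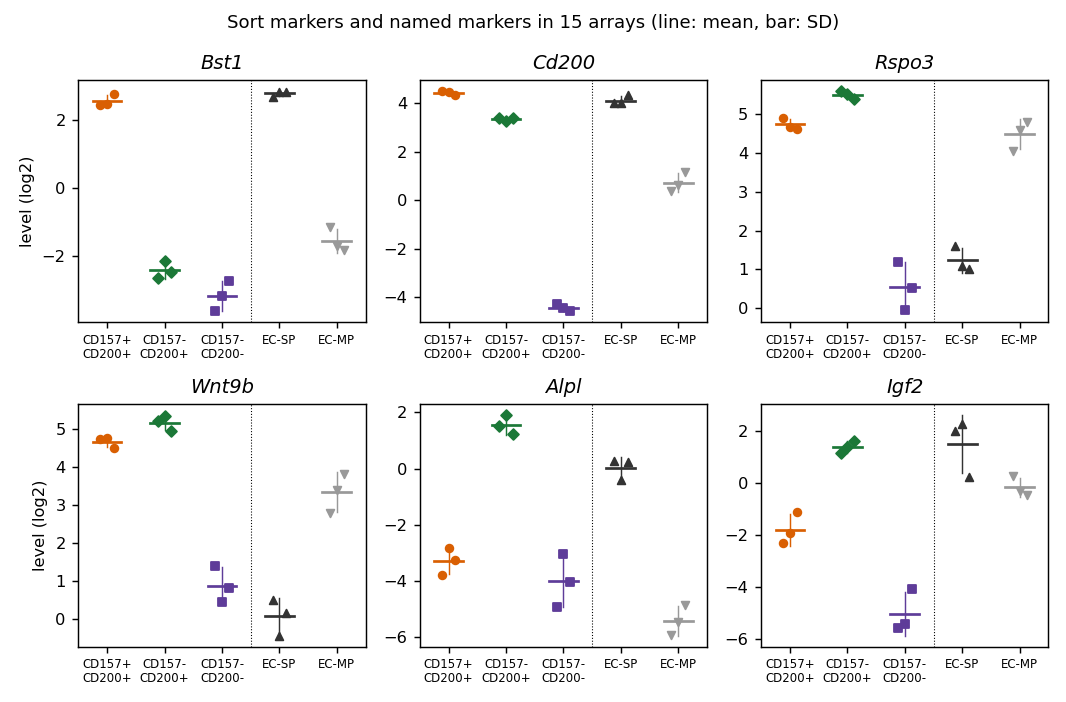
Level (log2 signal relative to the 75th percentile of the array) of the sort genes Bst1 and Cd200 and of Rspo3, Wnt9b, Alpl and Igf2 on each of 15 arrays, with the mean (line) and SD (bar) of 3 arrays per group. A dotted line separates the 3 subsets from EC-SP and EC-MP, which were scanned with other equipment and are compared only with each other. Alpl is above 1 only on CD157-CD200+ arrays, and Rspo3 is high in CD157-CD200+ and CD157+CD200+.

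Further peaks included Tmem178, Gap43 and Stmn2. Tmem178, a transmembrane protein, had levels of -0.07, 0.20 and -0.16 in CD157-CD200+, was not well above background on any CD157+CD200+ array and was so on 1 of 3 CD157-CD200- arrays. It was at least 17.2-fold higher than CD157+CD200+ (adjusted p = 0.00398, limma) and 4.97 log2 units above CD157-CD200- (adjusted p = 0.000142, limma). Gap43, a growth cone protein, had levels of -2.17, -2.51 and -2.51 in CD157-CD200+ and was at background on all 6 other arrays, which makes it at least 3.99-fold higher than CD157+CD200+ (adjusted p = 0.0035, limma) and at least 3.09-fold higher than CD157-CD200- (adjusted p = 0.000304, limma). Stmn2, a microtubule regulator of neurites that is also on the arterial list, had levels of 0.29, 0.09 and -0.17 in CD157-CD200+ and -2.01, -1.19 and -1.36 in CD157+CD200+, and was at background on all CD157-CD200- arrays. It exceeded CD157+CD200+ by 1.59 ± 0.26 (adjusted p = 0.0199, limma) and CD157-CD200- at least 17.1-fold (adjusted p = 8.55e-07, limma). The groups of Tmem178, Gap43 and Stmn2 did not overlap with CD157-CD200+, which was highest in each.

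Brighter peaks included S100a4, Serpinf1, Plppr5 and Aif1l. S100a4, a small calcium-binding protein, had levels of 2.58, 3.14 and 2.96 in CD157-CD200+, 0.98, 1.15 and 1.02 in CD157+CD200+, and -1.14, -1.75 and -1.69 in CD157-CD200-. It therefore stepped down from CD157-CD200+ by 1.85 ± 0.22 to CD157+CD200+ (adjusted p = 0.0048, limma) and by 4.42 ± 0.22 to CD157-CD200- (adjusted p = 1.66e-06, limma). Serpinf1, the secreted antiangiogenic factor PEDF, had levels of 1.86, 1.70 and 2.27, against -1.03, -1.13 and -0.61 in CD157+CD200+ and -0.56, -0.66 and 0.33 in CD157-CD200-. Here the other subsets overlapped and CD157-CD200+ exceeded them by 2.87 ± 0.29 and 2.24 ± 0.29 (adjusted p = 0.00219 and 0.000705, limma). Plppr5, a membrane protein of the lipid phosphatase-related family, had levels of 0.85, 0.96 and 0.83, and all 6 other arrays lay between -0.75 and -0.27. Aif1l, an actin-binding protein, had levels of 1.28, 1.54 and 0.86 in CD157-CD200+ and -1.22, -2.18 and -1.59 in CD157+CD200+, and was at background in CD157-CD200-. Its difference was 2.89 ± 0.37 (adjusted p = 0.00649, limma) from CD157+CD200+ and at least 34.6-fold from CD157-CD200- (adjusted p = 6.21e-06, limma).

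Gpr39 and Gpr160, both receptors, were among the peaks. Gpr39, a zinc-sensing receptor, had levels of -0.97, -1.09 and -1.17 in CD157-CD200+ and -2.96, -4.29 and -3.16 in CD157+CD200+, and was at background in CD157-CD200-, but it stayed a peak in 3 of 9 fits that left out an array. Gpr160, an orphan receptor, had levels of -0.54, -0.64 and -1.12, against -2.87, -2.33 and -2.54 in CD157+CD200+ and -3.04, -3.37 and -3.36 in CD157-CD200-, and stayed a peak in all 9. Both were thus lower in each other subset without overlap.
Further peaks were at background on every array of both other subsets, as Gap43 was. They were the RNA-binding protein gene Rbm24, the patched-domain gene Ptchd1, the sialyltransferase gene St8sia6 and the ephrin gene Efna5. All of these, Gap43 included, lost the pattern after normexp background correction. Rbm24 and Efna5 kept it in 4 of 9 leave-outs each, and Efna5 lost it in 5 of 8 other settings, normexp included. The bounds of Rbm24, Ptchd1, St8sia6 and Efna5 against CD157+CD200+ were at least 4.20-fold, 3.25-fold, 3.52-fold and 2.07-fold, in that order. These levels in CD157-CD200+ lay between -3.39 for Efna5 and -1.84 for Rbm24, well under the 75th percentile of the array. The matrix proteoglycan gene Vcan, Egfem1, Zfpm2 (a cofactor of GATA factors) and Gipc2 exceeded CD157+CD200+ by 1.68, 1.82, 1.14 and 1.29. Zfpm2 and Gipc2 kept the pattern in 2 and 1 of 9 leave-outs, and Gipc2 lost it with the block. The peak ENSMUST00000090180, a transcript with no gene symbol, was 1.29 above CD157+CD200+ and 8.10 above CD157-CD200-. It kept the pattern in 1 of 9 leave-outs, and lost it with no filter on dim probes and with all 15 arrays in 1 fit.

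Of the 20 peaks, 7 were well above background on all 9 arrays, 6 were at background on all CD157+CD200+ arrays and 9 on all CD157-CD200- arrays. Among the 14 with at least 1 CD157+CD200+ array well above background, the difference from the nearer subset ran from 1.13 for Gipc2 to 4.82 for Alpl. Dim genes of this kind pass the background filter through CD157-CD200+ alone, so these sizes describe the peaks and support nothing further.

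**Figure D3:**
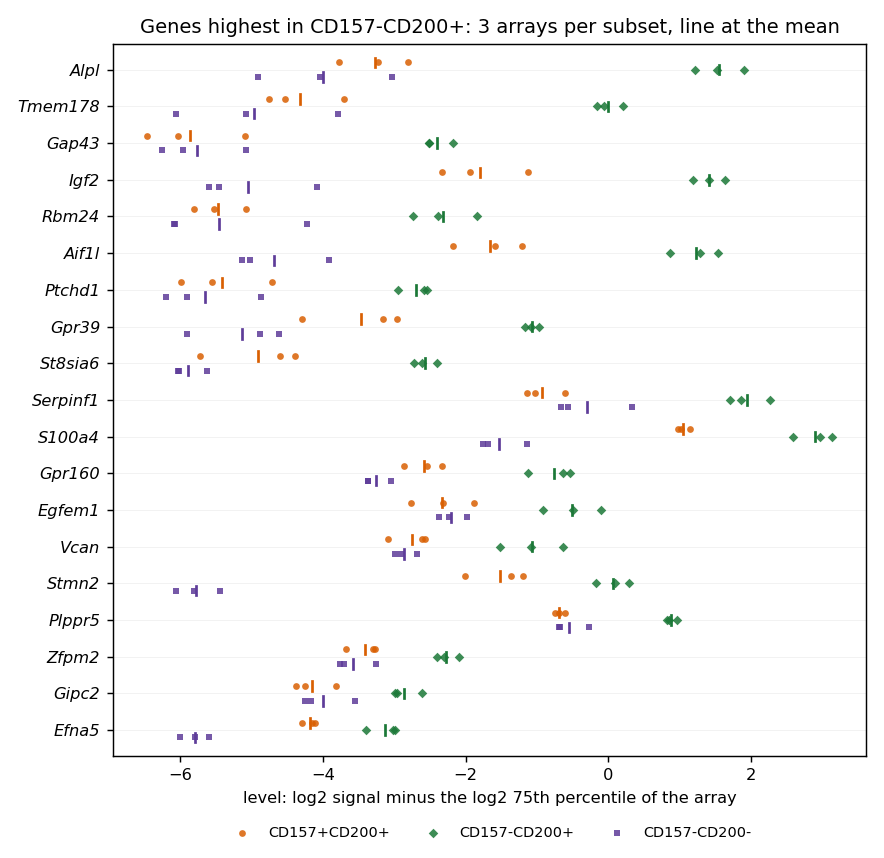
Level (log2 signal relative to the 75th percentile of the array) of the 19 peak genes with a symbol on each of 9 arrays, 3 per subset, 1 point an array and a line at the mean. In every gene the 3 CD157-CD200+ points lie above all 6 others, for example by 4.82 between means for Alpl against CD157+CD200+.

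Of the 24 dips 23 were well above background on all 9 arrays, and the difference from the nearer subset had a median of 1.20, from 0.81 for Bach1 to 2.37 for Ackr1.
Ackr1, the atypical chemokine receptor that marks venules, had levels of 0.09, -0.27 and -0.63 in CD157-CD200+, 2.61, 2.14 and 1.56 in CD157+CD200+, and 2.73, 2.79 and 2.03 in CD157-CD200-. The other subsets overlapped, and CD157-CD200+ lay below them by 2.37 ± 0.32 and 2.79 ± 0.32 (adjusted p = 0.00858 and 0.000323, limma). Cmah, which hydroxylates a sialic acid, had levels of -5.13, -4.28 and -2.72 in CD157-CD200+, where 1 of 3 arrays was well above background, against -0.18, -0.33 and -0.19 in CD157+CD200+ and -1.65, -2.45 and -1.45 in CD157-CD200-. CD157-CD200+ was lowest without overlap, but another Cmah probe gave -0.89 against CD157-CD200- (unadjusted p = 0.0837, limma). Cmah kept the pattern in 4 of 9 leave-outs and lost it with no filter on dim probes.

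Several dips had their highest level in CD157-CD200-. Chst2, a sulfotransferase that helps make selectin ligands, had levels of -0.31, -0.16 and 0.04 in CD157-CD200+, 1.54, 1.78 and 1.64 in CD157+CD200+, and 4.28, 4.33 and 3.98 in CD157-CD200-. Another Chst2 probe gave -0.75 against CD157+CD200+ (unadjusted p = 0.148, limma), and the dip was lost when probes were averaged. Irf8, a transcription factor of myeloid and endothelial cells, had levels of -1.04, -0.61 and -1.07, against 0.80, 1.31 and 0.84 in CD157+CD200+ and 1.82, 2.06 and 2.08 in CD157-CD200-. Irf8 is also on the plasmacytoid dendritic cell list, whose summed linear level over 9 genes ran from 37.4 to 38.4 in CD157-CD200+, 40.4 to 45.6 in CD157+CD200+ and 56.8 to 61.1 in CD157-CD200-, and the part of such cells was not tested. Bok, of the BCL2 family, had levels of -1.91, -1.36 and -1.77, against 0.12, 0.34 and -0.21 and then 2.25, 1.92 and 1.98. Enpep, aminopeptidase A, had levels of -3.18, -2.45 and -3.19, against -1.61, -1.48 and -1.34 and then 2.19, 1.96 and 2.08. In these 4 genes CD157+CD200+ stood between the other subsets. Ackr1, described above, had the same order of means, but was not called between the other subsets (adjusted p = 0.497, limma). The remaining dips with this order of means were Ces2e, Pawr, Nr5a2, Myzap, Rell1, Endou, Car13, Ccnd1 and the probe A_55_P2082880, which has no gene symbol. Ccnd1 (cyclin D1) had levels of 2.05, 1.80 and 1.99 in CD157-CD200+, against 2.78, 2.88 and 2.78 and then 4.75, 4.66 and 4.68. Endou, Car13 and A_55_P2082880 were not called between CD157+CD200+ and CD157-CD200- (adjusted p = 0.0900, 0.879 and 0.862, limma).

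Other dips had their highest level in CD157+CD200+. Myc, the growth-promoting transcription factor, had levels of 0.04, 0.73 and -0.05 in CD157-CD200+, 2.24, 2.74 and 2.03 in CD157+CD200+, and 1.03, 1.67 and 1.30 in CD157-CD200-. Plaur, the urokinase receptor, had levels of -0.16, 0.09 and -0.61, against 1.83, 2.20 and 1.55 and then 0.92, 0.86 and 0.67. Arrdc3, an arrestin-domain protein, had levels of 0.26, 0.30 and 0.41, against 2.27, 2.32 and 2.58 and then 1.63, 1.64 and 1.74. All 3 genes were lowest in CD157-CD200+ on every array, by 2.10 ± 0.28, 2.08 ± 0.24 and 2.06 ± 0.16 from CD157+CD200+ (adjusted p = 0.00833, 0.00382 and 0.000715, limma). Tgfbi, a matrix protein, and Cd14, the co-receptor for lipopolysaccharide, fell by 2.54 ± 0.27 and 2.14 ± 0.27 from CD157+CD200+ (adjusted p = 0.00284 and 0.00663, limma), and by 1.18 and 1.00 from CD157-CD200-. Cmah, described above, also had its highest mean in CD157+CD200+, but was not called between the other subsets (adjusted p = 0.0697, limma). Rab20, a small GTPase, Colgalt2, Bach1 (a heme-regulated repressor) and Alpk1 completed this order, each with its highest mean in CD157+CD200+. Colgalt2, Bach1 and Alpk1 were not called between CD157+CD200+ and CD157-CD200- (adjusted p = 0.624, 0.221 and 0.672, limma). Of the 24 immediate-early and dissociation genes measured, Myc was the 1 called against the average, and the list's median difference from CD157+CD200+ was -0.50, with 2 called lower (Myc and Fosl2). The summed linear level of that list ran from 1808 to 2420 in CD157-CD200+, 2352 to 3124 in CD157+CD200+ and 1666 to 1814 in CD157-CD200-, and its part in these dips was not tested.

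Stability differed between dips as it did between peaks. Ackr1, Arrdc3, Bok, Colgalt2, Irf8 and Rab20 kept the pattern in every leave-out run and in 9 alternative fits, as did the peaks Plppr5, S100a4 and Serpinf1. The peaks Aif1l, Alpl, Igf2 and Tmem178 kept it in every leave-out run and in 8 alternative fits. They were not tested where signal was required on every array. Changes of the calling rule were not followed gene by gene. Fewer than 5 of 9 leave-outs kept it for 12 dips and 6 peaks, among them Myc with 4, Cd14 with 3 and Ccnd1 with 1. Just inside the threshold lay Endou and Nr5a2 among dips and Zfpm2 and Gipc2 among peaks. Just outside lay Hbegf, Mogat2 and Vipr1 (0.66, 1.13 and 1.32 below the subset that missed, adjusted p = 0.0512, 0.0546 and 0.0559, limma), and Rpa1, Fam122b and Lypd1 above CD157+CD200+ by 0.73, 0.92 and 2.15 (adjusted p = 0.0559, 0.0809 and 0.0849, limma).

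**Figure D4:**
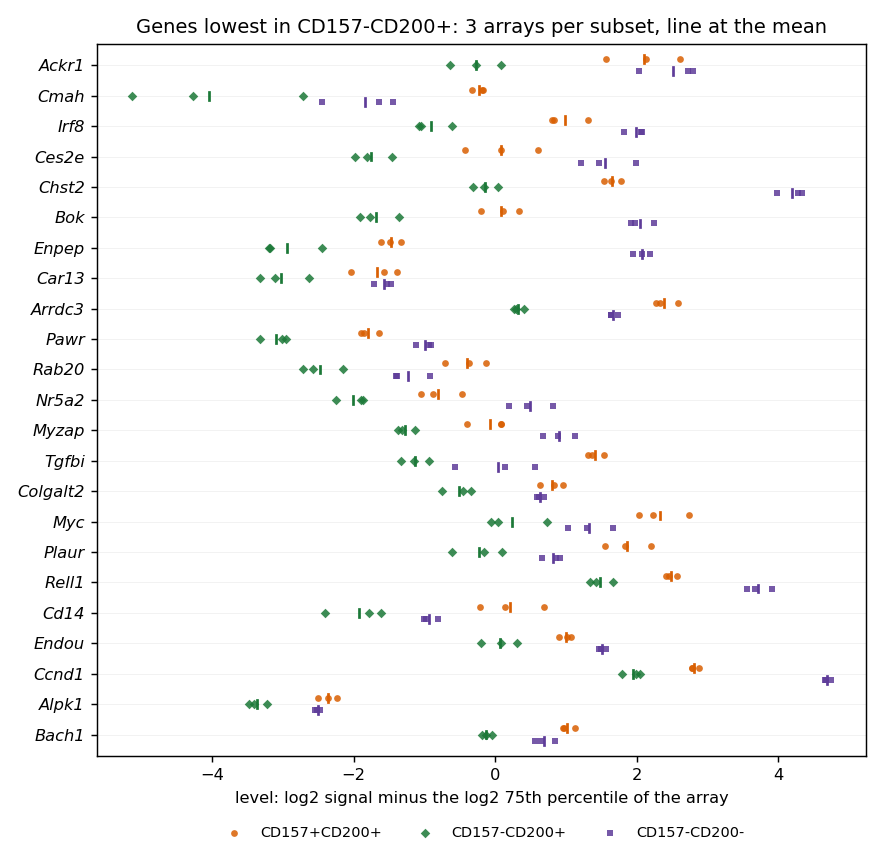
Level (log2 signal relative to the 75th percentile of the array) of the 23 dip genes with a symbol on each of 9 arrays, 3 per subset, 1 point an array and a line at the mean. In every gene the 3 CD157-CD200+ points lie below all 6 others, from Ackr1 with a step of 2.37 to Bach1 with a step of 0.81.

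Graded genes put CD157-CD200+ between the others. Il6, an inflammatory cytokine, had mean levels of 3.42 in CD157+CD200+, -0.44 in CD157-CD200+ and -4.14 in CD157-CD200-, where 1 of 3 arrays was well above background. Cd109, Vwa1 and Gucy1a1 were also graded, with CD157-CD200+ lower than CD157+CD200+ by 3.18, 3.01 and 2.97. Against CD157-CD200-, Vwa1 was higher by 3.38, and Cd109 and Gucy1a1, at background there, were at least 2.76-fold and 13.9-fold higher (adjusted p = 0.000134 and 8.04e-06, limma). Oit3, a gene of sinusoidal endothelium, ran the other way, with means of -0.11, 1.99 and 5.50. Lef1 and Nkd1, both of the Wnt pathway, were graded in opposite order against CD157+CD200+, at -1.78 and 0.91.

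The Wnt pathway was read from fixed lists. As background to the gene lists, of 14363 features with a gene symbol 3.17% were higher and 2.62% lower than the average, 0.341% higher and 1.18% lower than in CD157+CD200+, and 8.1% higher and 7.21% lower than in CD157-CD200-. Of 25 listed Wnt ligands, R-spondins and secretion factors, 15 were measured, and Rspo3 and Wnt9b were the 2 called against the average, both higher, with a list median of 0.15 against 0.013 for all features. Wnt2, another Wnt ligand of central vein endothelium, had levels of -2.06, -3.27 and -1.56 in CD157-CD200+, -1.42, -3.78 and -2.40 in CD157+CD200+, and -2.27, -3.07 and -1.37 in CD157-CD200-. The 3 subsets overlapped (difference from the average 0.090, adjusted p = 0.996, limma). Among 19 measured Wnt receptors and co-receptors Reck and Fzd7 were higher (median 0.20), and among 9 secreted Wnt inhibitors Dkk2 and Frzb were higher (median 0.20). Of 18 measured Wnt target genes and factors Ccnd1 was lower and 17 were not called (median 0.16). Against CD157-CD200-, 6 receptors were higher and 1 lower, 4 inhibitors were higher and 1 lower, and 6 targets were higher and 2 lower.

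Genes of larger vessels separated CD157-CD200+ from CD157-CD200- more than from CD157+CD200+. Of 20 measured large-vessel genes, 13 were higher than the average and 7 were not called, with a median of 1.86, among them Vwf (4.03), Bmp4 (4.05) and Eln (3.60). Against CD157+CD200+ the median of that list was 0.038, and Cd34 alone was called, lower. Of 21 arterial genes 12 were higher and Dll4 was lower (median 1.37), and 2 were peaks, Alpl and Stmn2. Against CD157+CD200+ those 2 were higher and the other 19 were not called (median 0.12). The summed linear level of the arterial list was 343 to 433 in CD157-CD200+, 453 to 569 in CD157+CD200+ and 135 to 170 in CD157-CD200-. Of 20 central vein and pericentral genes 9 were higher and Bmp2 was lower (median 0.54), with no peak. The summed linear level of this list was highest in CD157-CD200+, 759 to 813, against 670 to 724 in CD157+CD200+ and 457 to 584 in CD157-CD200-. Of the 9 called higher, Rspo3, Wnt9b, Fbln2, Amigo2, Cdh13 and Ptgs1 were highest on all 3 CD157-CD200+ arrays without a call against CD157+CD200+. Ptgs1 was 0.84 ± 0.20 above CD157+CD200+ (adjusted p = 0.124, limma, and 0.0318 with the block). Over all features, 1.98% had their 3 CD157-CD200+ arrays above all 6 others. The 9 were picked by a call on the same arrays, and Rspo3 and Wnt9b were given as markers. Their order therefore describes them and supports nothing further. Of 17 venous genes 5 were higher and 1 lower, the dip Ackr1. Against CD157+CD200+ 0 venous genes were higher and 3 were lower (median -0.28). Of 22 sinusoidal genes 12 were lower and 10 were not called (median -0.88), and 20 were lower than in CD157-CD200-, while 4 (Clec4g, Dpp4, Fcgr2b and Oit3) were higher than in CD157+CD200+.

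Among 15 insulin-like growth factor genes Igf2, Igfbp3 and Igfbp5 were higher and Igf1 lower (median 0.15). Among 21 of 27 imprinted genes measured, Igf2, H19 and Plagl1 were higher (median 0.16). Against CD157-CD200- the counts were 6 higher and 1 lower for the first list, and 5 higher and 2 lower for the second. Against CD157+CD200+ they were 1 higher and 2 lower (median -0.15) for the first, and 1 higher and 0 lower (median 0.046) for the second. The first list's summed linear level ran from 60.0 to 64.3 in CD157-CD200+, 85.1 to 86.6 in CD157+CD200+ and 44.1 to 47.4 in CD157-CD200-. The sum of the imprinted list was highest in CD157-CD200+, 169 to 193, against 150 to 155 in CD157+CD200+ and 125 to 141 in CD157-CD200-. H19, the noncoding RNA next to Igf2, kept the array's own name and had levels of -0.94, -0.51 and 0.18 in CD157-CD200+, -2.24, -2.03 and -1.42 in CD157+CD200+, and -2.71, -2.21 and -2.25 in CD157-CD200-. Its CD157-CD200+ arrays were above all others, by 1.47 ± 0.32 from CD157+CD200+ (adjusted p = 0.0774, limma; 0.0098 with the block). Of 24 leukocyte adhesion genes 4 were higher and 3 lower (median -0.25), and against CD157+CD200+ 6 were lower and 18 were not called (median -0.63). Semaphorins, ephrins and other guidance genes were 7 higher and 2 lower of 44, with Efna5 a peak and the only call against CD157+CD200+. Of 43 vessel transcription factors 6 were higher and 3 lower, with Zfpm2 a peak and Irf8 a dip. Against CD157+CD200+ 1 of these factors was higher and 6 were lower (median -0.20). The balance of all features with a gene symbol was also toward lower there, 0.341% higher and 1.18% lower. In all, 12 of 43 gene lists held a peak or dip, and 9 of the 44 members were on any list. Over all features, 0.0844% were peaks and 0.101% dips. The 43 include a list of the 4 markers given for CD157-CD200+, and its peaks Alpl and Igf2 are on other lists too. These counts therefore describe the lists and support nothing further.

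Endothelial genes were measured throughout: of 15 general endothelial genes 2 were lower than the average, Cldn5 and Kdr. Their summed linear level ran from 336 to 414 in CD157-CD200+, 336 to 408 in CD157+CD200+ and 436 to 568 in CD157-CD200-. Against CD157-CD200- 1 was higher and 4 were lower. Marker lists of other cells differed between subsets. The summed linear level of 19 hepatocyte genes ran from 21.0 to 22.1 in CD157-CD200+, 21.5 to 26.4 in CD157+CD200+ and 53.3 to 61.8 in CD157-CD200-, and 5 were called lower than the average. Kupffer cell genes summed to 38.2 to 53.7, 35.4 to 42.5 and 73.6 to 82.1, platelet genes to 10.7 to 11.7, 8.27 to 11.1 and 45.8 to 67.5, and erythroid genes to 2.43 to 3.92, 2.34 to 4.64 and 19.3 to 36.4, in the same order. Stellate cell genes summed to 36.7 to 44.4 in CD157-CD200+, 36.9 to 42.6 in CD157+CD200+ and 12.3 to 15.6 in CD157-CD200-, with Rgs5 called higher than the average and Pdgfra, Lum and Dpt not well above background in any subset. Against CD157-CD200- 3 stellate cell genes were higher and 2 lower. The 4 measured mesothelial genes summed to 37.6 to 50.8, 45.1 to 58.8 and 5.29 to 7.76 in CD157-CD200+, CD157+CD200+ and CD157-CD200-, with Gpm6a called higher and Msln and Wt1 at background. Smooth muscle genes summed to 14.7 to 20.6, 13.5 to 15.3 and 12.1 to 14.2, with Myocd at background and Acta2 called higher. Genes of hepatic nerve and glia summed to 74.6 to 112, 79.1 to 133 and 73.3 to 109, with Ncam1 called higher. The part of such cells in the peaks and dips was not tested.

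The peaks and dips were then read in EC-SP against EC-MP, arrays that were not in the fit that called them. These arrays did count in the choice of the brightest probe of each gene. Of 22610 features tested in both fits, 2089 (9.24%) were higher in EC-SP and 1660 (7.34%) lower (3749 in all, 16.6%), with a median difference of -0.0015. Of the 15 peaks measured there 9 were higher in EC-SP, 4 lower and 2 not called, with a median of 1.80, and 5 peaks (Gap43, Rbm24, Ptchd1, St8sia6 and Efna5) were not tested because they were too dim. Of the 24 dips 10 were higher in EC-SP, none was lower and 14 were not called, with a median of 0.80. At an unadjusted p under 0.05 limma gave 12 dips higher and 1 lower. The share of all features at that threshold was not counted, so these 2 counts cannot be set against it. With the authors' own scaling all features shifted by -0.17, 39.8% of calls were higher in EC-SP instead of 55.0%, and 8 peaks were higher and 4 lower, and 10 dips were higher and 0 lower.

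Alpl had levels of 0.27, -0.39 and 0.25 in EC-SP and was at background in EC-MP, at least 15.6-fold lower (adjusted p = 2.75e-05, limma). S100a4 and Aif1l were higher in EC-SP by 3.68 ± 0.45 (adjusted p = 0.000889, limma) and at least 9.59-fold (adjusted p = 0.000394, limma). Igf2 had levels of 2.03, 2.28 and 0.24 in EC-SP and 0.26, -0.30 and -0.47 in EC-MP, which overlapped, with a difference of 1.68 ± 0.50 (adjusted p = 0.0491, limma). The Igf2 call held in 1 of 6 fits that left out an array, with adjusted p from 0.00253 to 0.159. Plppr5, Egfem1, Gpr160 and Gpr39 were the 4 peaks lower in EC-SP, Plppr5 by 2.89 ± 0.26 (adjusted p = 0.000188, limma). Rspo3 and Wnt9b also were lower in EC-SP, by 3.25 ± 0.28 and 3.26 ± 0.34 (adjusted p = 0.000161 and 0.000383, limma), and Wnt2 was at background in EC-SP and at least 8.76-fold lower there (adjusted p = 9.52e-05, limma). Genes high in CD157-CD200+ thus went both ways between EC-SP and EC-MP. The sort genes Bst1 and Cd200 were themselves higher in EC-SP, by 4.34 ± 0.24 and 3.39 ± 0.26 (adjusted p = 2.68e-05 and 9.04e-05, limma). The part of this difference in the calls of peaks and dips was not tested. Among dips Plaur, Myc, Arrdc3 and Cd14 were higher in EC-SP by 3.40, 2.97, 2.73 and 2.56, while Irf8, Chst2 and Bok were not called (0.44, -0.68 and -0.32). Ackr1 was higher by 1.15 ± 0.29 (adjusted p = 0.0256, limma), a call that held in 1 of 6 leave-outs.

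**Figure D5:**
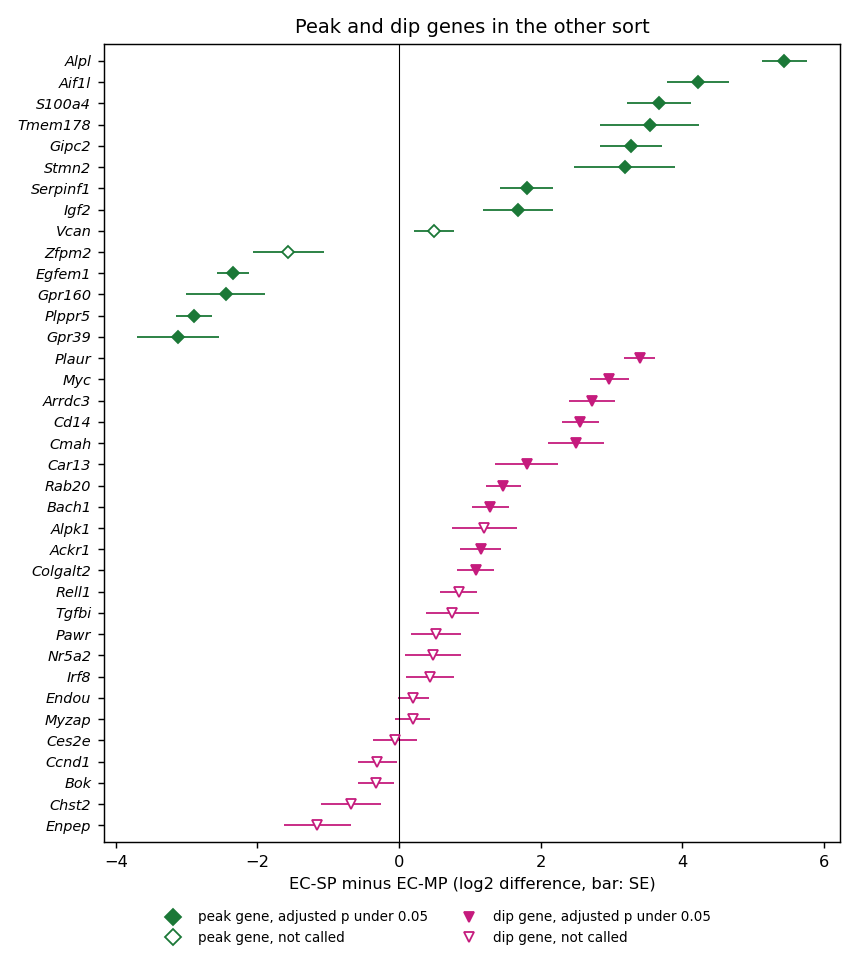
Log2 difference of EC-SP from EC-MP (horizontal axis, with SE over 3 arrays per group) for 14 peak and 23 dip genes with a symbol, filled where called at an adjusted p under 0.05. Alpl, Aif1l, Tmem178 and Gipc2 were at background in EC-MP and Gpr39 in EC-SP, so their plotted values are fitted and not measured on both sides. Plaur, at 3.40, and Plppr5, at -2.89, were measured in both.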

How the data were processed

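RNA of sorted mouse liver endothelial cells was hybridised, per the labels' protocols, to 1-colour Agilent arrays, and the deposited scanner files give a background-corrected intensity per spot. Per the file headers, the subset arrays were read with Feature Extraction 11.5.1.1, and the other 6 arrays with version 10.10.1.1 on another scanner. The authors' series table held the same values times a constant per array. The deposited intensities were divided by each array's 75th percentile, taken as log2 and averaged over spots of a probe, without control and flagged spots. Probes well above background on all 3 arrays of a group were kept. The brightest probe stood for a gene. RefSeq symbols were found for 28059 of 55681 probes. Fits used limma 3.58.1 in R 4.3.3, with all 3 subsets in 1 fit and EC-SP and EC-MP in another, and were tested on simulated data. Bounds used, on each array, the larger of the probe's signal and the lowest signal well above background. Figures used matplotlib 3.10.9.

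Named genes were the sort genes, the 4 markers, the 12 peak and 12 dip genes with the largest difference from the nearer subset, and up to 3 peaks or dips per gene list. Other members are named to account for each, after their values were seen. Members and lists were chosen with earlier results of these data known. Replicate number and scan coincide, and each scan of subset arrays holds all 3 subsets. Same-numbered samples deviated together (r from 0.27 to 0.63 over 9 pairs, and from 0.27 to 0.33 over 3 pairs of EC-SP and EC-MP). Paired samples and a shared scan cannot be told apart here. The main fits did not use the replicate number as a block. Alternatives were this block, the authors' scaling, normexp background correction (offset 50, on the median signal, the column the files hold), other filters and probe rules, and each array left out.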

Additional observations from a re-analysis of the deposited data

How the results depend on the processing

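With the replicate block, features called were 2230 against the average, 727 against CD157+CD200+ and 5282 against CD157-CD200-, with 76 peaks, 97 dips and 290 graded. The block changed no EC-SP call of a peak or dip. With normexp there were 387 calls against CD157+CD200+, 36 peaks and 39 dips. With no filter on dim probes there were 598 calls against the average, 13 dips, 56 graded features and 2279 EC-SP calls (3968 otherwise). Requiring signal on every array gave 160 calls against CD157+CD200+ and 7 peaks, and 4 peaks higher and 2 lower in EC-SP. Trend and robust moderation gave 37 dips. Adjusting the larger of both p-values gave 9 dips and 58 graded features. Non-overlap with a call against the average gave 190 peaks and 157 dips. Leaving out each array gave 471 to 971 calls against the average, 101 to 253 against CD157+CD200+, 1986 to 2746 against CD157-CD200-, 11 to 26 peaks, 12 to 23 dips and 33 to 105 graded features, with 2667 to 3297 EC-SP calls. Peaks higher in EC-SP were then 7 to 9, peaks lower 3 to 4, and dips higher 7 to 11. Alternatives for EC-SP counts of members were chosen after seeing the data. Of the differences of named genes between the 3 subsets across alternatives, 1612 kept direction and side of the threshold, 123 lost the call, 2 gained it and 0 reversed. Between EC-SP and EC-MP, the uncalled differences of Ces2e and Myzap each changed sign in 1 fit, and Zfpm2, Enpep, Rell1 and Alpk1 were called in some (lowest adjusted p = 0.0154, 0.0302, 0.0108 and 0.00813, limma). With 3 arrays a group, their number limits precision, and genes near background have bounds only.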
